A study of Homo sapiens with 8 samples.

Results

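NRF2 (encoded by *NFE2L2*) is the transcription factor that switches on cellular defences against oxidants and electrophiles. In unstressed cells the adaptor KEAP1 binds NRF2 and hands it to a ubiquitin ligase for degradation. When NRF2 is released it pairs with a small MAF protein on antioxidant response elements and raises the transcription of genes for glutathione and thioredoxin supply, NADPH supply, heme and iron handling, and the conjugation and export of reactive compounds. Here 39 such antioxidant and redox genes were taken by gene symbol from a fixed list, and 38 of them were found among the 19770 genes of the RNA-seq files. *AKR1B10* was not analysed here.

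The genes were measured 72 h after transfection of HEK293T, a long-established line of human embryonic kidney cells, in 4 groups of 2 libraries each. All cells received a pool of 4 gRNAs against the *HBG1*/*HBG2* promoters, and no member of the list was targeted. The control received dCas9 (nuclease-dead Cas9) with MCP-mCherry, where MCP is the coat protein that docks on MS2 hairpins of the gRNA. CRISPR-DREAM used dCas9 with MCP-MSN, an activator that holds a transactivation part of NRF2 (named eNRF2) among its parts. The SAM system used dCas9-VP64 with MCP-p65-HSF1. In dCas9-VPR the activator is fused directly to dCas9, with gRNAs that carry no MS2 hairpins. It also differed in plasmid, with 375 ng of the fusion and no MCP plasmid against 187.5 ng each of a dCas9 and an MCP plasmid in the other groups, so in every dCas9-VPR comparison the activator and this difference cannot be told apart. Plasmids were transiently transfected, so each library holds RNA of transfected and untransfected cells together. The depth estimated from the files was 28.4 to 35.1 M reads per library, at which 3 reads are worth 0.0854 to 0.106 CPM (reads per gene scaled to the same total in every library). The question of the comparison was whether the system that carries an NRF2 part differed from the others in the genes that NRF2 is known to control.

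Markers of the labelled cell line were checked once. *KRT18* (79.7 to 101 CPM), *VIM* (267 to 440 CPM) and the neurofilament gene *NEFL* (33.3 to 47.8 CPM) were present in all 8 libraries, as known for this line, and the endothelial gene *VWF* and the hepatic gene *APOA1* reached at most 0.229 and 0.313 CPM. The endothelial gene *PECAM1* ranged from 0.0319 to 1.17 CPM and the erythroid gene *SLC4A1* from 0.0326 to 0.341 CPM. *PAX2*, a kidney lineage gene, lay at 0.798 to 1.73 CPM. Markers moved between groups too. The epithelial keratin *KRT8* averaged 47.7 CPM in the control, 110 CPM for CRISPR-DREAM, 99.9 CPM for SAM and 85.3 CPM for dCas9-VPR, and passed the test relative to the control in all 3 (limma adjusted p of 1.3e-05, 2.4e-05 and 0.00038). *VIM* averaged 370 CPM in the control, 292 CPM for CRISPR-DREAM, 303 CPM for SAM and 426 CPM for dCas9-VPR, lower for CRISPR-DREAM than in the control (limma adjusted p = 0.037) and than for dCas9-VPR (limma adjusted p = 0.011). *PECAM1* averaged 0.0812, 0.513, 1.10 and 0.0447 CPM in that order. It reached the 1 CPM in 2 libraries needed for testing only through the SAM libraries, where it was highest, so no p-value is given for it. The part of these markers in the results below was not tested.

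Antioxidant response elements share a core that was searched for as TGACNNNGC on both strands of the RefSeq promoter windows, which run from 250 bases before to 50 bases after each start site (build GRCh38.p14). Windows were given for 30 of the 39 genes, and 12 of those (40%) held the core in at least 1 window, against 16.1% of all 27305 genes in that table. The genes without a window there were *SLC7A11*, *GSR*, *PRDX1*, *PRDX6*, *SOD1*, *HMOX1*, *FTH1*, *AKR1B10* and *ABCC1*. Per window the shares were 32.5% of 40 and 13.3% of 35116. The sequences below are shown because they hold the core in a gene that moved with CRISPR-DREAM (*GSTP1*, *EPHX1*), in usual NRF2 targets that did not pass the test with it (*TXNRD1*, *GCLM*) and in *ME1*, which passed the test with dCas9-VPR. Each is written 5′ to 3′ on the strand of its gene, with the core in capitals. In *GCLM* the core lies on the opposite strand, so the printed letters are its reverse complement. The matches start 66, 78, 99, 34 and 137 bases upstream of the RefSeq start site, in the order printed. The stretches of *GSTP1* and *GCLM* run into the first exon of a longer, non-canonical Gencode transcript. That of *EPHX1* lies within the gene at a later start site, outside its Gencode exons.
GSTP1, chr11:67583711-67583769 (+): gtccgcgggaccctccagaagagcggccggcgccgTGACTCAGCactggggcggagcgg
EPHX1, chr1:225825241-225825299 (+): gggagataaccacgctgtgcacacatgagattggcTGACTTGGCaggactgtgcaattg
TXNRD1, chr12:104215645-104215703 (+): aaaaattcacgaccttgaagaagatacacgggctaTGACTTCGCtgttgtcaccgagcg
GCLM, chr1:93909441-93909499 (-): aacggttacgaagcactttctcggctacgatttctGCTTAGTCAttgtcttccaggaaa
ME1, chr6:83431165-83431223 (-): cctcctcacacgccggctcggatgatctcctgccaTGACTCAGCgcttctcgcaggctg

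Levels of the 38 genes spanned a wide range in the control. Per kilobase of the canonical transcript, the ferritin subunits that store iron were highest, with *FTH1* at 612 and *FTL* at 591 CPM per kilobase. Next came the conjugating enzyme *GSTP1* at 536, the peroxidases *GPX1* at 365 and *PRDX1* at 362, and *GPX4*, which reduces lipid peroxides, at 350 CPM per kilobase. Among the usual NRF2 targets, the cystine/glutamate exchanger subunit *SLC7A11* lay at 10.2, the glutamate-cysteine ligase genes *GCLC* and *GCLM* at 5.91 and 4.82 and the quinone reductase *NQO1* at 1.43 CPM per kilobase. The lowest of the genes tested was the growth inhibitor *OSGIN1* at 0.838 CPM per kilobase. *FTL*, *FTH1*, *PRDX1*, *GPX1* and *TXN* have processed pseudogene copies, so the assignment of their reads is uncertain. The near-identical aldo-keto reductase genes *AKR1C1*, *AKR1C2* and *AKR1C3* lay between 0 and 0.356 CPM in every library, were below the filter (at least 1 CPM in at least 2 libraries) and get no fold change. The other 35 genes were tested among 15122 genes.

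Summed over the 38 genes, the level differed little between groups. Abundant genes weigh most in this sum, so it says little about the usual NRF2 targets. In the control *FTH1* averaged 736 CPM and *TKT* 665 CPM, against 27.8 CPM for *HMOX1* and 3.61 CPM for *NQO1*. Control libraries summed to 6051 and 6032 CPM, CRISPR-DREAM libraries to 5914 and 6186 CPM, SAM libraries to 5867 and 5979 CPM, and dCas9-VPR libraries to 6316 and 6344 CPM. The CRISPR-DREAM libraries lay on either side of the control pair, and both dCas9-VPR libraries above all others.

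**Figure D1:**
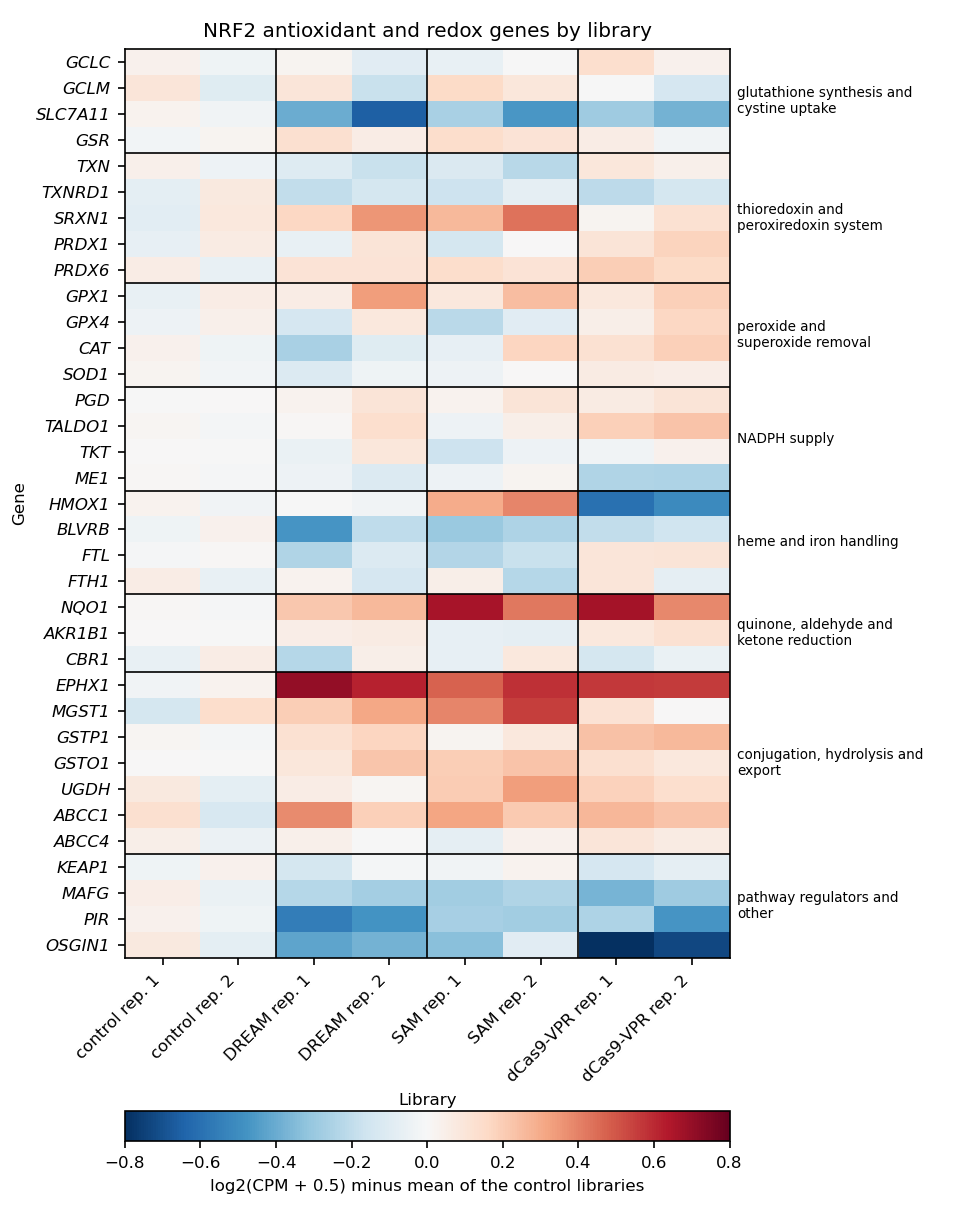
Colour shows log2(CPM + 0.5) of each gene (rows, grouped by role) in each of the 8 libraries (columns), minus the mean of the control libraries. Most cells are pale, and *EPHX1* and *SLC7A11* stand out with the same sign in all 6 activator libraries.

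No member passed the study's threshold of a fold change above 2 at a false discovery rate (FDR) below 0.05 in CRISPR-DREAM relative to the control, where 2.55% of all genes did (limma on log2(CPM + 0.5), Benjamini-Hochberg adjustment over the 15122 genes). At an unadjusted p under 0.05 the count past that fold change was 0 as well. At FDR below 0.05 with no fold threshold, 2 of the 35 members rose, 5 fell and 28 did not pass the test. That is 20% of the members, against 28.0% of all genes tested (18.8% higher and 9.25% lower). The median log2 difference was -0.02 over the members and 0.06 over all genes. Because CPM values depend on the other genes of a library, the fit was repeated after median-of-ratios scaling, which put 1 member higher and 7 lower (all genes, 2070 higher and 2165 lower, against 2837 and 1399 in CPM). Without control replicate 2, 4 members were called. Libraries with the same replicate number deviated together, and with the replicate number as a block in the fit 7 members were higher and 8 lower, 42.9% of them against 44.7% of all genes. The block ended no call among the members and added 8, which are given with their blocked p beside each gene. The p-values rest on 2 libraries per group, which the sources used here do not describe as separate cultures, so they measure the spread between these libraries, and that may be technical. In bulk RNA a change in every cell and a larger change in fewer cells cannot be told apart, nor can fewer cells of a type and less RNA per cell.

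*EPHX1* (chr1:225810092-225845564, + strand), the microsomal epoxide hydrolase, had the largest rise among the members. It lay at 51.3 and 53.1 CPM in control libraries and 85.1 and 80.2 CPM in CRISPR-DREAM libraries, with no overlap. The log2 difference was 0.66 (SE 0.06, limma adjusted p = 6.5e-05), a 1.58-fold ratio of mean CPM. The SAM libraries lay at 72.4 and 78.4 CPM and those of dCas9-VPR at 77.4 and 77.0 CPM, all above both control libraries. Relative to the control, the log2 differences were 0.53 for SAM (limma adjusted p = 0.00019) and 0.56 for dCas9-VPR (limma adjusted p = 0.00054). CRISPR-DREAM differed from the SAM system by 0.13 (95% interval -0.01 to 0.27) and from dCas9-VPR by 0.10 (-0.04 to 0.24), neither of which passed the test. After median-of-ratios scaling the first of these was 0.24 (limma adjusted p = 0.044).

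The remaining conjugation, hydrolysis and export genes showed small differences. *GSTP1* (chr11:67583742-67586657, + strand), a glutathione S-transferase, lay at 401 and 393 CPM in control libraries and 431 and 448 CPM in CRISPR-DREAM libraries. Its log2 difference was 0.15 (SE 0.05, limma adjusted p = 0.038) and the groups did not overlap. The call was lost after median-of-ratios scaling (0.07, limma adjusted p = 0.37), in the fit of the 4 libraries alone (limma adjusted p = 0.12), and without control replicate 1, control replicate 2 or DREAM replicate 2 (limma adjusted p of 0.095, 0.18 and 0.11). The glutathione exporter *ABCC1* (34.5 and 28.8 CPM in the control, then 41.0 and 36.03 CPM) and *GSTO1* (123 and 123 CPM, then 131 and 144 CPM) had log2 differences of 0.28 and 0.16 with limma adjusted p of 0.052 and 0.060, and did not pass without the replicate block, but did with it (limma adjusted p of 0.00095 and 0.0062). *MGST1*, *UGDH* and *ABCC4*, with log2 differences of 0.25, 0.04 and 0.02, did not pass either. All 7 genes of this group had a log2 difference above 0 in CPM, 2 of which passed the test (4 with the block), while after median-of-ratios scaling *UGDH* and *ABCC4* were below 0 (-0.04 and -0.06).

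In the glutathione synthesis group, *SLC7A11* (chr4:138164097-138242350, - strand) imports cystine, from which cells make the cysteine of glutathione. It lay at 100 and 96.5 CPM in the control, at 74.7 and 62.4 CPM with CRISPR-DREAM, at 82.1 and 71.1 CPM with the SAM system and at 80.7 and 75.6 CPM with dCas9-VPR. Both control libraries were above all 6 others, so a usual NRF2 target was lower with every activator, the one that carries an NRF2 part included. With SAM and dCas9-VPR the log2 differences from the control were -0.36 and -0.33 (limma adjusted p of 0.010 and 0.036). With CRISPR-DREAM the log2 difference from the control was -0.52 (SE 0.09, limma adjusted p = 0.0025). Against SAM and dCas9-VPR it was -0.16 (95% interval -0.37 to 0.04) and -0.19 (-0.40 to 0.01), and neither passed. Both did with the replicate block (limma adjusted p of 0.022 and 0.0070) and without DREAM replicate 1, at -0.29 and -0.32 (limma adjusted p of 0.044 and 0.034).

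The 3 other genes of that group did not pass in any comparison, except *GSR* with the replicate block in SAM relative to the control (0.13, limma adjusted p = 0.039). *GCLM* (chr1:93885199-93909457, - strand), the modifier subunit of the enzyme that limits glutathione synthesis, lay at 25.1 and 21.9 CPM in control libraries and 25.1 and 20.6 CPM in CRISPR-DREAM libraries. The ranges overlapped almost entirely, with a log2 difference of -0.04 (95% interval -0.28 to 0.20). Its catalytic partner *GCLC* ranged from 21.0 to 24.6 CPM and the glutathione reductase gene *GSR* from 64.7 to 72.8 CPM over the 8 libraries.

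None of the 5 thioredoxin and peroxiredoxin genes passed the limma test in CRISPR-DREAM relative to the control, and 3 had an unadjusted p under 0.05. With the replicate block 4 of them passed, *TXN* and *TXNRD1* lower and *SRXN1* and *PRDX6* higher. *TXNRD1* (chr12:104215779-104350308, + strand), which recharges thioredoxin, lay at 179 and 200 CPM in control libraries and 165 and 172 CPM in CRISPR-DREAM libraries. The log2 difference was -0.17 (95% interval -0.31 to -0.03, limma adjusted p = 0.071). It passed with the replicate block (limma adjusted p = 0.0014), after median-of-ratios scaling (-0.24, limma adjusted p = 0.034) and without control replicate 1 (-0.25, limma adjusted p = 0.037). *SRXN1* (chr20:646615-653201, - strand), the sulfiredoxin that repairs over-oxidised peroxiredoxins, lay at 51.0 and 57.6 CPM in control libraries and 60.8 and 69.4 CPM in CRISPR-DREAM libraries, without overlap. Its log2 difference of 0.26 (95% interval 0.06 to 0.46) did not pass without the block (limma adjusted p = 0.054), and it passed with the block (limma adjusted p = 0.00024) and without DREAM replicate 1 (0.35, limma adjusted p = 0.023). *PRDX1*, *PRDX6* and thioredoxin itself (*TXN*) had log2 differences between -0.14 and 0.11, with blocked limma adjusted p of 0.0052 for *TXN* and 0.017 for *PRDX6*.

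The peroxide and superoxide genes *GPX1*, *GPX4*, *CAT* and *SOD1* had 0 of 4 calls in that comparison (limma, 0 at an unadjusted p under 0.05), with log2 differences from -0.18 to 0.20. With the replicate block *GPX1* was higher (0.20, limma adjusted p = 0.00027) and *CAT* lower (-0.18, limma adjusted p = 0.042). The NADPH supply genes, which give the reducing power that glutathione and thioredoxin reductases need, had 0 of 4 by both measures and with the block as well, with *PGD*, *TALDO1*, *TKT* and *ME1* between -0.07 and 0.07.

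**Figure D2:**
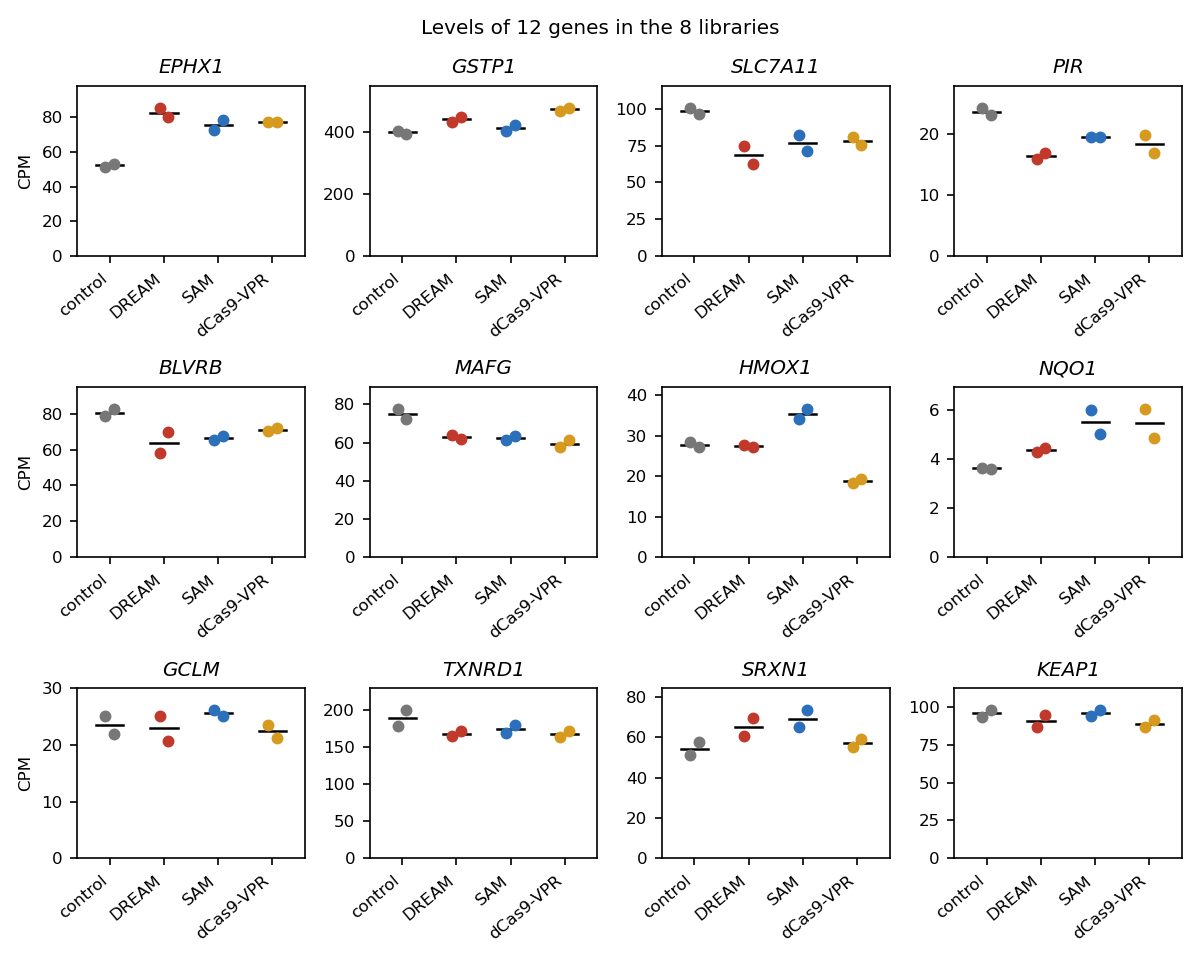
Points are CPM (linear axis from 0) of 12 genes in the 2 libraries of each group, and black bars are group means. The control pair of *EPHX1* lies below all other libraries, that of *SLC7A11* and *PIR* above them, and *HMOX1* with CRISPR-DREAM lies at the control level.

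Of the heme and iron genes, 2 fell and 2 did not pass the test with CRISPR-DREAM relative to the control, with or without the block. *HMOX1* (chr22:35380361-35394215, + strand), heme oxygenase 1, which opens the heme ring and is a standard readout of NRF2, lay at 28.3 and 27.2 CPM in control libraries and 27.7 and 27.2 CPM in CRISPR-DREAM libraries. These values overlap, and the log2 difference was -0.02 (95% interval -0.18 to 0.15). With the SAM system it lay higher, at 34.2 and 36.5 CPM, and with dCas9-VPR lower, at 18.2 and 19.3 CPM. The log2 differences of these from the control were 0.34 (limma adjusted p = 0.0050) and -0.55 (limma adjusted p = 0.0017), the former lost after median-of-ratios scaling (0.16, limma adjusted p = 0.11). Between activators, CRISPR-DREAM was 0.54 above dCas9-VPR on the log2 scale (SE 0.08, limma adjusted p = 0.0024), a call that held under every alternative. It was 0.36 below the SAM system (SE 0.08, limma adjusted p = 0.020). That call was lost after median-of-ratios scaling (-0.25, limma adjusted p = 0.063), in the 4 libraries alone (limma adjusted p = 0.064), and without DREAM replicate 2, SAM replicate 1 or SAM replicate 2 (limma adjusted p of 0.066, 0.066 and 0.18).

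*BLVRB*, biliverdin reductase B, was the member of this group that fell most with CRISPR-DREAM, from 78.7 and 82.5 CPM to 58.0 and 69.9 CPM. The log2 difference was -0.34 (SE 0.08, limma adjusted p = 0.012). Its call was lost without control replicate 2 (-0.30, limma adjusted p = 0.088) and without DREAM replicate 1 (-0.20, limma adjusted p = 0.054). The ferritin light chain *FTL* lay at 511 and 518 CPM in control libraries and 436 and 478 CPM in CRISPR-DREAM libraries. Its log2 difference of -0.17 (limma adjusted p = 0.031) was lost in the 4 libraries alone (limma adjusted p = 0.10) and without control replicate 1, control replicate 2 or DREAM replicate 1 (limma adjusted p of 0.089, 0.15 and 0.16). The heavy chain *FTH1* ranged from 627 to 786 CPM over all libraries and did not pass in that comparison.

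Among quinone, aldehyde and ketone reductases, *NQO1* (chr16:69706996-69726669, - strand), the classical NRF2 target, lay at 3.64 and 3.58 CPM in control libraries and 4.27 and 4.42 CPM in CRISPR-DREAM libraries. The libraries did not overlap, but the log2 difference of 0.24 (95% interval -0.08 to 0.55) did not pass the test (limma adjusted p = 0.23). The SAM system (6.00 and 5.00 CPM) and dCas9-VPR (6.02 and 4.86 CPM) lay above both CRISPR-DREAM libraries. *NQO1* passed the test relative to the control in those groups, at 0.54 (limma adjusted p = 0.011) and 0.53 (limma adjusted p = 0.030). The call with the SAM system was lost after median-of-ratios scaling (limma adjusted p = 0.051) and without control replicate 2 or SAM replicate 1 (limma adjusted p of 0.055 and 0.094), and that with dCas9-VPR without any 1 of the 4 libraries compared (limma adjusted p of 0.081, 0.15, 0.22 and 0.058 without control replicates 1 and 2 and dCas9-VPR replicates 1 and 2). The differences of CRISPR-DREAM from them, -0.30 (95% interval -0.62 to 0.01) and -0.29 (-0.60 to 0.03), did not pass. The aldose reductase *AKR1B1* (280 to 319 CPM) and the carbonyl reductase *CBR1* (107 to 133 CPM) did not pass in any comparison in CPM, except that with the replicate block *AKR1B1* was higher in CRISPR-DREAM than in SAM (0.13, limma adjusted p = 0.010) and in dCas9-VPR than in the control (0.10, limma adjusted p = 0.028).

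Of the regulators and remaining members, *PIR* and *MAFG* fell and *KEAP1* and *OSGIN1* did not pass the test. *KEAP1* (chr19:10486125-10503559, - strand) lay at 93.8 and 98.0 CPM in control libraries and 87.0 and 94.7 CPM in CRISPR-DREAM libraries, overlapping, with a log2 difference of -0.08 (95% interval -0.22 to 0.06). *PIR* (chrX:15384799-15493565, - strand), pirin, an iron-binding nuclear protein, lay at 24.1 and 23.0 CPM in control libraries and 15.9 and 16.8 CPM in CRISPR-DREAM libraries, a log2 difference of -0.52 (SE 0.09, limma adjusted p = 0.0028). The SAM and dCas9-VPR libraries lay between 16.8 and 19.8 CPM, also below both control libraries. *MAFG*, a small MAF partner of NRF2 that falls outside the rule for genes described singly and was chosen after its values were seen, lay at 77.4 and 72.2 CPM in control libraries and 63.8 and 61.8 CPM in CRISPR-DREAM libraries (log2 difference -0.25, limma adjusted p = 0.015). That call was lost without control replicate 1 (-0.20, limma adjusted p = 0.10). *OSGIN1* lay at 1.72 and 1.50 CPM in control libraries and 1.08 and 1.12 CPM in CRISPR-DREAM libraries, and did not pass (-0.40, limma adjusted p = 0.11).

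Of the 7 calls of CRISPR-DREAM relative to the control without the block, 3 held under every alternative setting run, namely *EPHX1*, *SLC7A11* and *PIR*. None of the 7 changed sign.

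**Figure D3:**
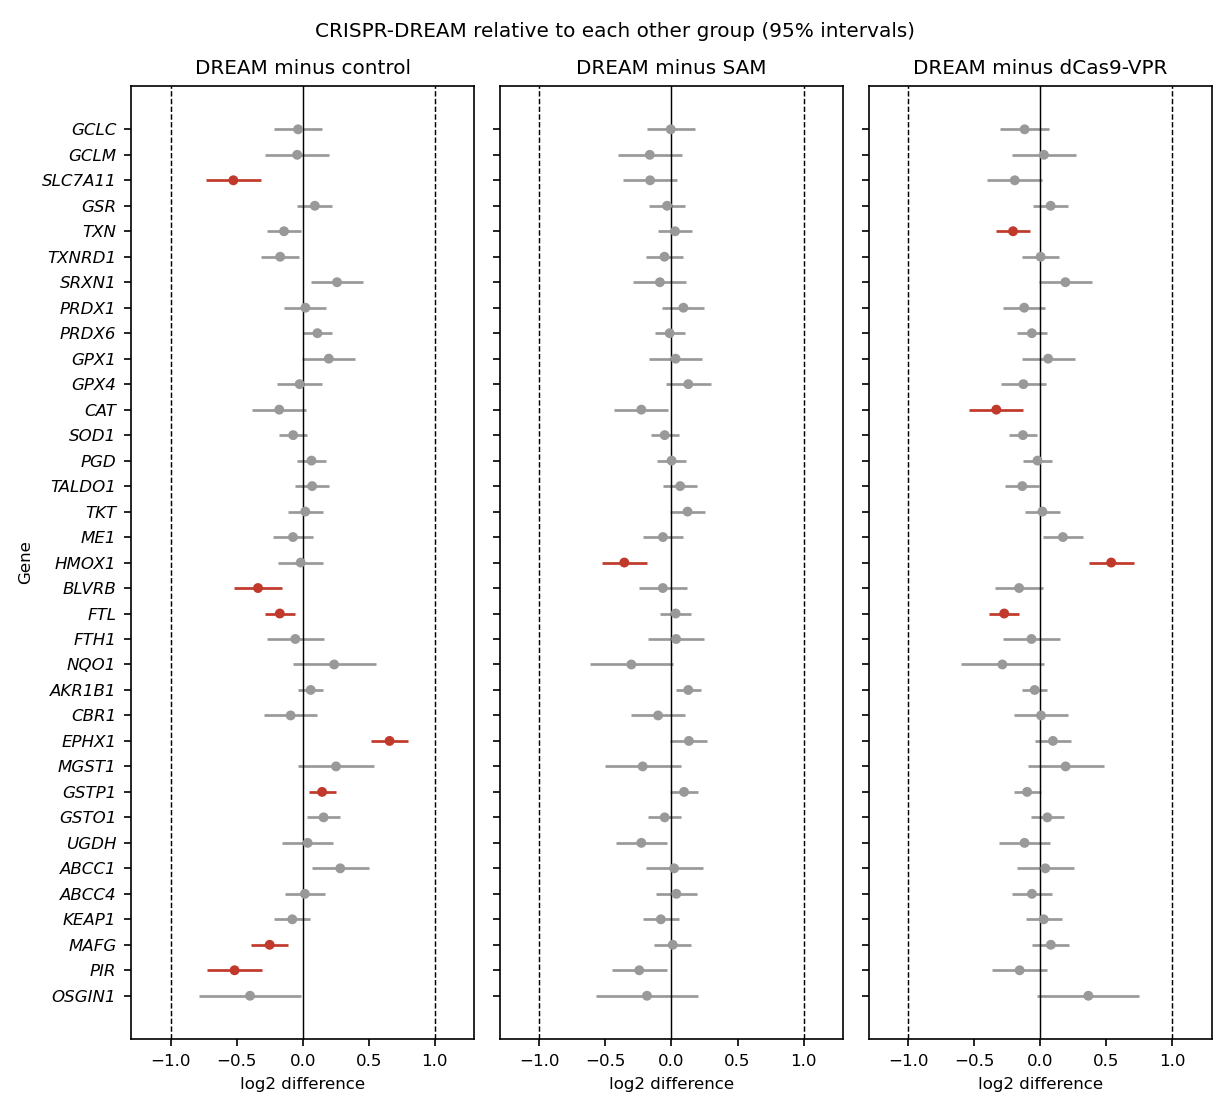
Points are log2 differences of 35 genes on the log2(CPM + 0.5) scale for CRISPR-DREAM minus the control, the SAM system and dCas9-VPR, with 95% intervals. Red marks an FDR below 0.05 in the fit without the replicate block, and dashed lines mark a fold change of 2, which no point reaches.

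CRISPR-DREAM was then set against the other activators directly. Relative to the SAM system, 1 of 35 members passed the test (*HMOX1*, lower), or 2.86%, against 10.7% of all genes (1.59% higher and 9.14% lower). With the replicate block 9 passed, 4 higher and 5 lower, 25.7% against 30.5% of all genes. The 8 added were *GPX4*, *TKT*, *AKR1B1* and *GSTP1*, higher, and *SLC7A11*, *CAT*, *UGDH* and *PIR*, lower, with log2 differences from -0.24 to 0.13 and limma adjusted p from 0.010 to 0.047. This comparison depends on the scaling, which shifted the median of all genes by 0.10 on the log2 scale. After median-of-ratios scaling 3 members passed, all higher with CRISPR-DREAM (*AKR1B1*, *EPHX1* and *GSTP1*, log2 differences of 0.23, 0.24 and 0.20), and the split of all genes turned from 241 higher and 1382 lower to 804 higher and 535 lower. With DREAM replicate 1 left out 3 members passed, and with DREAM replicate 2, SAM replicate 1 or SAM replicate 2 left out 0 passed. The fit of the 4 libraries alone also gave 0.

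Relative to dCas9-VPR, 4 of 35 members (11.4%) passed, against 13.1% of all genes (7.90% higher and 5.21% lower). With the replicate block 13 passed, 3 higher and 10 lower, 37.1% against 29.7% of all genes. The 9 added were *SRXN1* and *ME1*, higher, and *SLC7A11*, *PRDX1*, *GPX4*, *SOD1*, *TALDO1*, *BLVRB* and *GSTP1*, lower, with log2 differences from -0.19 to 0.19 and limma adjusted p from 0.0070 to 0.047. *HMOX1* was higher, as given above. *CAT*, catalase (chr11:34438934-34472061, + strand), was lower, at 28.6 and 32.1 CPM against 37.3 and 39.3 CPM (log2 difference -0.33, limma adjusted p = 0.041). *FTL* was lower, at 436 and 478 CPM against 549 and 554 CPM (-0.27, limma adjusted p = 0.0089), and so was *TXN*, at 175 and 166 CPM against 200 and 193 CPM (-0.21, limma adjusted p = 0.041). In all of these the library ranges were separate. Without dCas9-VPR replicate 1 or replicate 2 only *HMOX1* of the 4 kept its call, with limma adjusted p for *CAT* of 0.14 and 0.22, for *FTL* of 0.077 and 0.086, and for *TXN* of 0.23 and 0.15. *CAT* also lost its call without DREAM replicate 1 (limma adjusted p = 0.12) and *TXN* without DREAM replicate 2 (limma adjusted p = 0.13), and in the 4 libraries alone 2 members passed. No member passed a fold change of 2 in either comparison (0 also at an unadjusted p under 0.05, limma), against 0.721% and 0.734% of all genes.

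The systems that do not carry the NRF2 part were compared with the same control libraries, so the 3 comparisons are not independent. With the SAM system 14 of 35 members (40%) passed the test, 8 higher and 6 lower, against 44.6% of all genes (35.7% higher and 8.89% lower). Under the block 21 passed, 11 higher and 10 lower, 60.0% against 58.1% of all genes. This split depends on the scaling. The median of all genes shifted by -0.18 on the log2 scale under median-of-ratios scaling, which gave 1 member higher (*EPHX1*) and 15 lower. Over all genes that scaling gave 2716 higher and 3196 lower. No called member changed sign, and 7 of the 14 kept their call. Under every alternative setting run, 1 of the 14 calls held. Leaving out control replicate 1 or 2 gave 8 or 6 calls, and leaving out SAM replicate 1 or 2 gave 8 or 5. The higher members in CPM were *NQO1*, *EPHX1*, *MGST1*, *SRXN1*, *HMOX1*, *UGDH*, *ABCC1* and *GSTO1*, with log2 differences from 0.54 down to 0.21. The lower ones were *SLC7A11*, *BLVRB*, *PIR*, *MAFG*, *FTL* and *TXN*, from -0.36 to -0.17.

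With dCas9-VPR 11 of 35 members (31.4%) passed, 5 higher and 6 lower, against 17.6% of all genes (11.0% higher and 6.68% lower). Under the block 19 passed, 11 higher and 8 lower, 54.3% against 37.5% of all genes. After median-of-ratios scaling 3 were higher and 6 lower, beside 1226 higher and 1348 lower over all genes. Higher in CPM were *EPHX1*, *NQO1*, *GSTP1*, *TALDO1* and *PRDX6*, with log2 differences from 0.56 down to 0.18. Lower were *OSGIN1*, *HMOX1*, *PIR*, *SLC7A11*, *MAFG* and *ME1*, from -0.76 to -0.24. *OSGIN1* lay at 0.715 and 0.770 CPM, the lowest of all libraries, and its call was lost when any 1 of the 4 libraries was left out (limma adjusted p of 0.071 and 0.069 without control replicates 1 and 2, and 0.10 and 0.075 without dCas9-VPR replicates 1 and 2). Of the 11 calls, 2 held under every alternative setting run. Past a fold change of 2 there were 0 members for SAM and 0 for dCas9-VPR (limma), also at an unadjusted p under 0.05, against 4.34% and 1.10% of all genes. The largest difference was that of *OSGIN1*, and the added 0.5 CPM understates the change of so low a gene. With 0.1 CPM added in its place, 1 member passed that fold change with dCas9-VPR.

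**Figure D4:**
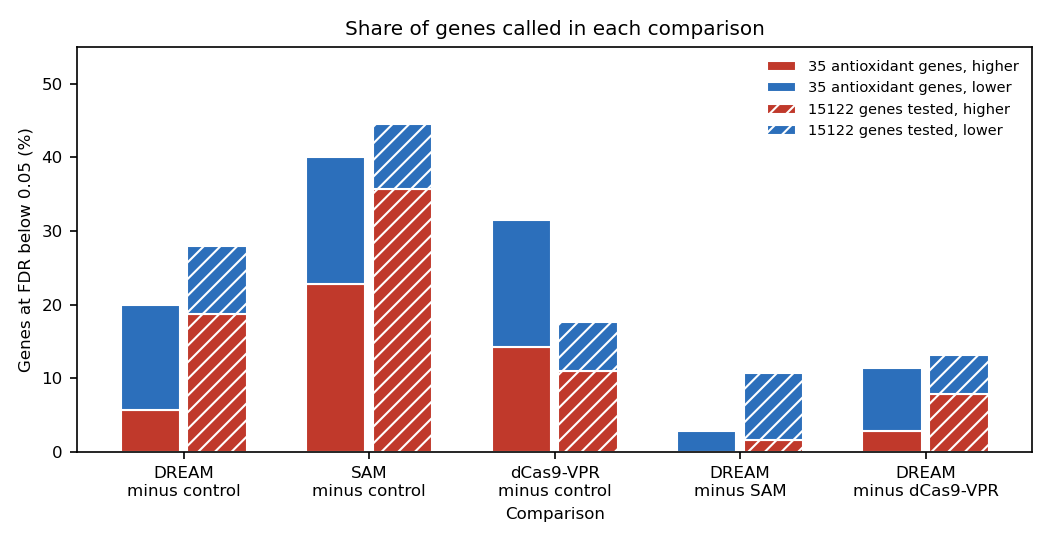
Bars start at 0 and give the percentage of genes at FDR below 0.05 in each of 5 comparisons without the replicate block, for the 35 antioxidant genes (plain) and all 15122 genes tested (hatched), split into higher (red) and lower (blue) in CPM. The antioxidant genes lie below all genes in 4 comparisons and above them with dCas9-VPR relative to the control.

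Members that moved with CRISPR-DREAM were found both with and without the core in a promoter window. In the fit without the block, of the 12 tested members with the core 2 rose (*EPHX1*, *GSTP1*) and 1 fell (*PIR*), with a median log2 difference of -0.01. Of the 15 with a window but no core, 0 rose and 3 fell (*BLVRB*, *FTL*, *MAFG*), with a median of -0.02. A match of these letters is a description of the window. Sequence outside the windows was not searched, so a gene without the core there can hold it elsewhere.

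The rest of the NRF2 pathway was described from a second list of 23 genes. *NFE2L2* (chr2:177227595-177392698, - strand) had a mean of 45.5 CPM in the control and 271 CPM with CRISPR-DREAM, a 5.96-fold ratio. These reads can come from the transfected eNRF2 part or from the endogenous gene, and CPM per gene cannot tell them apart. Its values were 38.4 and 35.7 CPM with the SAM system and 39.4 and 38.0 CPM with dCas9-VPR, below both control libraries (47.0 and 44.02 CPM). Those log2 differences were -0.29 (limma adjusted p = 0.0045) and -0.23 (limma adjusted p = 0.033), the second lost when any 1 of the 4 libraries was left out (limma adjusted p of 0.15 and 0.089 without control replicates 1 and 2, and 0.12 and 0.17 without dCas9-VPR replicates 1 and 2).

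*NFE2* (chr12:54292111-54301016, - strand), the blood cell relative of NRF2 that binds similar sites, lay at 0.319 and 0.228 CPM in control libraries and 3.48 and 3.90 CPM in CRISPR-DREAM libraries. The libraries were far apart, and the log2 difference was 2.44 (SE 0.17). *NFE2* passed the filter only through activator libraries, the higher ones, so its p-values are no support and are not given. The added 0.5 CPM understates the change of so low a gene, whose ratio of mean CPM was 13.5. The SAM system gave 2.49 and 3.01 CPM and dCas9-VPR 0.944 and 1.03 CPM. CRISPR-DREAM was above dCas9-VPR by 1.49 on the log2 scale and did not pass the test relative to the SAM system (0.37, 95% interval -0.01 to 0.75).

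*MAFF* (chr22:38200767-38216508, + strand), another small MAF partner, moved the other way. It lay at 11.3 and 12.5 CPM in the control, 4.52 and 5.86 CPM with CRISPR-DREAM, 6.43 and 8.16 CPM with the SAM system and 3.98 and 4.33 CPM with dCas9-VPR. All activator libraries were below both control libraries. The log2 differences from the control were -1.13 (limma adjusted p = 0.00049), -0.68 (limma adjusted p = 0.0051) and -1.41 (limma adjusted p = 0.00044). The second was lost without SAM replicate 1 (-0.51, limma adjusted p = 0.053). CRISPR-DREAM did not pass relative to either activator, but did with the replicate block relative to SAM (-0.45, limma adjusted p = 0.0044).

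**Figure D5:**
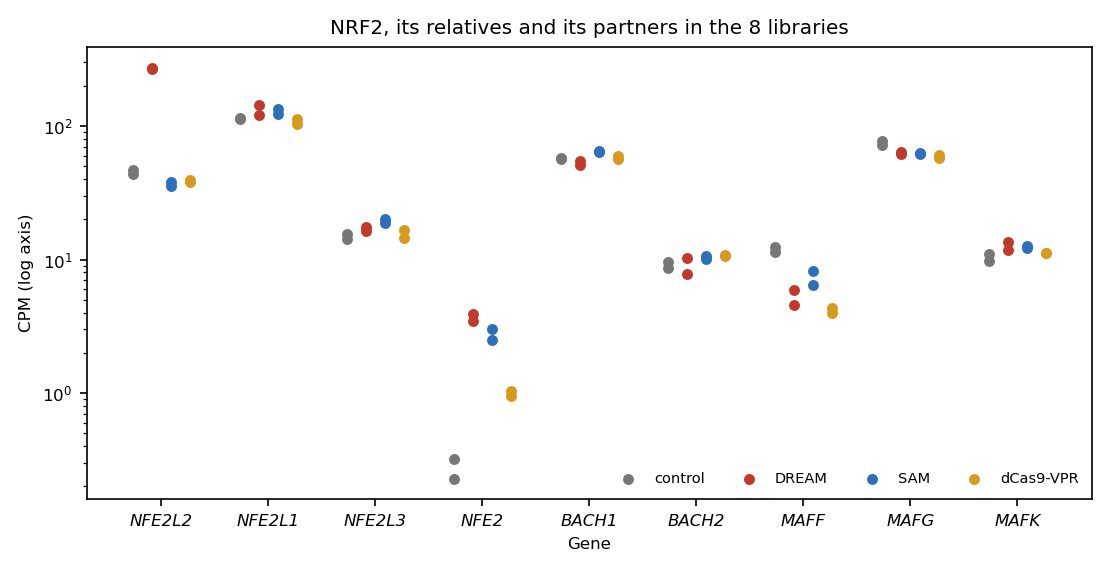
Points are CPM on a log axis of *NFE2L2*, its relatives, the BACH repressors and the small MAF partners in the 8 libraries, coloured by group. *NFE2L2* is highest with CRISPR-DREAM, *NFE2* is lowest in the control and *MAFF* is highest in the control.

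Counted over the 23 pathway genes, 4 were higher and 2 lower with CRISPR-DREAM relative to the control at FDR below 0.05, 10 and 3 with the SAM system, and 5 and 3 with dCas9-VPR. These are 26.1%, 56.5% and 34.8% of the list, beside 28.0%, 44.6% and 17.6% of all genes. With the replicate block they became 13, 18 and 13 genes. Those are 56.5%, 78.3% and 56.5% of the list, beside 44.7%, 58.1% and 37.5% of all genes. After median-of-ratios scaling the unblocked counts of higher and lower genes became 4 and 4, 5 and 6, and 4 and 4. Over all genes that scaling gave 2070 and 2165, 2716 and 3196, and 1226 and 1348. Relative to the SAM system 1 was higher and 2 lower, and relative to dCas9-VPR 2 were higher and 1 lower, 13.04% of the list in each, beside 10.7% and 13.1% of all genes. With the block these were 8 and 6 genes, 34.8% and 26.1% of the list, beside 30.5% and 29.7% of all genes. *NFE2L2* was among the genes higher with CRISPR-DREAM in each of its comparisons, and was the only 1 relative to the SAM system. Its reads can come from the transfected eNRF2 part, so these counts can include the activator itself. The counts of higher genes relative to the control and to dCas9-VPR also include *NFE2*, which passed the filter only through activator libraries. The medians of the log2 differences from the control were 0.15, 0.18 and 0.10, beside 0.06, 0.16 and 0.06 over all genes.

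Another list held 78 further redox genes, of which 72 were in the files and 67 were tested. With CRISPR-DREAM 23 were higher and 9 lower than in the control, 47.8% of the list beside 28.0% of all genes, with a median log2 difference of 0.07 beside 0.06. With the SAM system 25 were higher and 8 lower (49.3% beside 44.6%), and with dCas9-VPR 19 and 8 (40.3% beside 17.6%). After median-of-ratios scaling these became 19 and 12, 14 and 18, and 14 and 8. Over all genes that scaling gave 2070 and 2165, 2716 and 3196, and 1226 and 1348. With the block 40, 43 and 37 genes passed relative to the control, in the same order. Those are 59.7%, 64.2% and 55.2% of the list, beside 44.7%, 58.1% and 37.5% of all genes. Relative to the SAM system 3 were higher and 7 lower with CRISPR-DREAM, and 8 and 2 after median-of-ratios scaling (all genes, 804 and 535). Relative to dCas9-VPR the counts were 3 and 6. These are 14.9% and 13.4% of the list, beside 10.7% and 13.1% of all genes. With the block 19 and 22 genes passed, 28.4% and 32.8% of the list, beside 30.5% and 29.7% of all genes. *SLC40A1* (chr2:189560590-189583759, - strand), ferroportin, the iron exporter of the cell, was the one gene of this list past a fold change of 2. It lay at 7.34 and 7.76 CPM in the control, 17.0 and 15.9 CPM with CRISPR-DREAM, 20.6 and 21.7 CPM with the SAM system and 11.2 and 11.5 CPM with dCas9-VPR. The 4 groups did not overlap, and the log2 differences from the control were 1.08, 1.43 and 0.56 (limma adjusted p of 3.0e-05, 7.9e-06 and 0.0037).

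*SLC3A2*, the heavy chain that pairs with *SLC7A11* in the cystine exchanger, was chosen after its values were seen. It lay at 481 and 491 CPM in the control, 352 and 363 CPM with CRISPR-DREAM, 357 and 371 CPM with the SAM system and 348 and 347 CPM with dCas9-VPR. As with *SLC7A11*, both control libraries were above all others. The log2 differences from the control were -0.44, -0.41 and -0.48 (limma adjusted p of 9.7e-05, 0.00011 and 0.00020).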

How the data were processed

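RNA-seq values of 8 HEK293T libraries were analysed. The authors aligned paired 75-base reads with STAR 2.7.3a to hg38 (Gencode 36), quantified genes with a Bayesian method, and the deposited CPM values carry an added 0.0001. They called genes with DESeq2 (3.5 in the submitters' notes). A total RNA kit is named in the methods and polyA RNA in the labels. Only 63.8% to 74.8% of low values lay within 0.02 reads of a whole number, so no count model was used. Whether cultures were separate is not given in the sources used here.

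Log2(CPM + 0.5) of genes that reached 1 CPM in 2 or more libraries was fitted with limma 3.58.1 (R 4.3.3, trend and robust) over all libraries, 4 residual degrees of freedom, with Benjamini-Hochberg adjustment over 15122 genes. An exact permutation test of 2 against 2 libraries cannot go below p = 0.333 (two-sided) and was not used. Intervals and depth limits of low values cover counting error or replicate spread only. Genes described singly were members past a fold change of 2, the 3 highest and 3 lowest called members in each CRISPR-DREAM comparison, 7 usual NRF2 genes, *NFE2L2*, and other listed genes past a fold change of 2. Members and lists were chosen with earlier results of these data known. Gene positions and transcript lengths are from Gencode 44, promoters from RefSeq (GRCh38.p14). Alternatives were median-of-ratios scaling, pseudocounts of 0.1 and 1, no filter or one at 10 CPM, the 4 libraries compared alone, a replicate block and leaving out each library. Samples share replicate numbers, whose meaning the labels do not give. Differences between replicates 1 and 2 correlated at 0.133 to 0.326 over all genes and 0.326 to 0.703 over the members in the 6 pairs of groups. The blocked result is therefore given for each member whose call it changes in a CRISPR-DREAM comparison. For the other comparisons and lists it is given mostly as counts. The pairing comes from these values alone. Some listed marker genes are not reported here.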

Additional observations from a re-analysis of the deposited data

How the results depend on the processing

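With 2 libraries per group, leaving out 1 library gave 4 to 8 called members for CRISPR-DREAM minus control, 0 to 3 for CRISPR-DREAM minus SAM, 1 to 4 for CRISPR-DREAM minus dCas9-VPR, 5 to 8 for SAM minus control and 2 to 7 for dCas9-VPR minus control. Fewer libraries leave a wider error, and the lone library is assumed to vary like the other groups. Median-of-ratios scaling moved the median log2 difference of the members to -0.0886 (CRISPR-DREAM minus control), 0.0739 (CRISPR-DREAM minus SAM, 3 calls) and -0.18 (SAM minus control). The 4 libraries alone gave 0 calls for CRISPR-DREAM minus SAM and 2 for CRISPR-DREAM minus dCas9-VPR. A pseudocount of 0.1 put 1 member past a fold change of 2 with dCas9-VPR relative to the control. The cause of these moves was not tested. The filter at 10 CPM gave no value for *NQO1*, *MGST1* and *OSGIN1*. Of 37 called pairs of member and comparison 0 changed sign under any alternative and 7 kept their call under all; of 138 uncalled pairs 64 changed sign under at least 1 and 46 were called under at least 1.

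A replicate block raised the calls to 15 (CRISPR-DREAM minus control), 9 (CRISPR-DREAM minus SAM), 13 (CRISPR-DREAM minus dCas9-VPR), 21 (SAM minus control) and 19 (dCas9-VPR minus control), and ended no call among the members. The share called over all genes rose with it too, to 44.7%, 30.5%, 29.7%, 58.1% and 37.5% in that order.

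Reversed log2 differences were all of genes uncalled in CPM without the block. Leaving out 1 library of CRISPR-DREAM relative to the control gave *HMOX1* -0.043 to 0.013 and *GCLM* -0.18 to 0.10. Relative to the SAM system, scaling gave *KEAP1* 0.0270, *TXNRD1* 0.0543 and *SRXN1* 0.0196, and leaving out 1 library gave *SRXN1* -0.18 to 0.0069. Relative to dCas9-VPR, scaling gave *TXNRD1* -0.0202, and leaving out 1 library gave *KEAP1* -0.035 to 0.088, *GCLM* -0.11 to 0.17 and *TXNRD1* -0.033 to 0.038.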
